A study of Mus musculus with 6 samples.

Results

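Integrins are receptors on the cell surface built from 1 alpha and 1 beta chain. The transcripts of 10 integrin chains were followed in thymic iNKT1 cells, lipid-reactive T cells with an invariant receptor that depend on T-bet and make interferon-gamma, by bulk RNA-seq. The chains were taken by gene symbol from a table of 17985 genes, and all 10 had a row in it: Itgae, Itgb7, Itgb3, Itgav, Itga1, Itgb1, Itga4, Itgal, Itgb2 and Itga6. Control mice (Ctrl) carried the transgene Tbx21CreTg, in which Cre is driven by the gene of the transcription factor T-bet, and the reporter Rosa26-LSL-YFP+/+, which marks cells in which Cre has acted. Conditional knockout mice (cKO) had both of these and Tgfbr2F/F, floxed alleles of the gene of a TGF-beta receptor subunit. All mice had a C57BL/6 background and were untreated, and the labels give no age and do not say whether animals were pooled. There were 3 libraries per group, and the labels call them independent without saying that they came from separate animals. The p-values therefore measure the spread between these libraries.

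An integrin reaches the cell surface only as an alpha-beta pair, so that a chain without a partner is largely kept inside the cell. The alpha and beta chains together set the ligand: E-cadherin for the Itgae-Itgb7 pair (CD103 with beta7), ICAM proteins for Itgal-Itgb2 (LFA-1), collagens for Itga1-Itgb1 (CD49a), vitronectin and other matrix proteins for Itgav-Itgb3, VCAM-1 and fibronectin for Itga4-Itgb1 (VLA-4), MAdCAM-1 for Itga4-Itgb7 and laminins for Itga6-Itgb1. CD103 and CD49a mark T cells that reside in epithelia and other tissues. In T cells Itgae is known as a gene that TGF-beta induces.

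Library totals ran from 28832779 to 68092478 reads, and levels are in CPM, counts per 1000000 reads of the library total. Both replicate 3 libraries stood apart from the others: they had 4406 (Ctrl) and 4590 (cKO) genes at 0, against at most 5 in any other library. The 4098 genes at 0 in both of them had a median of 0.571 to 0.994 CPM per kb of gene model in replicates 1 and 2, so the change of each chain that passed a fit is also given for replicates 1 and 2 and for replicate 3. Same-numbered libraries deviated together from their group means, which cannot show that they were paired, since both replicate 3 libraries stood apart. A second fit, planned as an alternative, held the replicate number as a block. Tgfbr2, counted over the whole gene and not over its deleted part alone, was at 425 to 461 CPM in Ctrl and at 258 to 289.8 CPM in cKO. Its limma log2 fold change was -0.71 with an adjusted p of 0.0207 (0.00160 with the block). Without the block it did not pass under TMM scaling (limma adjusted p 0.0947), in edgeR's quasi-likelihood fit (adjusted p 0.0687) or in 5 of the 6 limma fits that left out 1 library (adjusted p 0.0536 to 0.155), all but the one without cKO replicate 3. The authors' deposited table gives it a log2 fold change of -0.64 and an adjusted p of 0.373 and does not mark it as changed. The 8 markers of iNKT1 and T cells were all present and summed to 7401 to 9461 CPM in Ctrl and 7718 to 10791 CPM in cKO, and 1 of them passed limma without the block and 2 with it. Of these, Xcl1, a chemokine gene, was at 164 to 212 CPM in Ctrl and at 85.7 to 98.5 CPM in cKO (limma adjusted p 0.0281). Il2rb, an interleukin receptor chain, was at 2357 to 3521 CPM in Ctrl and at 2948 to 4383 CPM in cKO and passed with the block (limma adjusted p 0.0166). Klrb1c, the gene of NK1.1, was at 179.9 CPM in Ctrl replicate 2, against 566 and 703 CPM in the other Ctrl libraries and 639.8 to 1021 CPM in cKO. The markers named in the text were picked out after their values were seen.

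The 10 chains did not move as a family: a few single chains changed, in opposite directions, while their partners did not pass the test. Of the 10 chains, all tested, 2 passed a limma adjusted p of 0.05, 1 in each direction, where 0.663% of the 15691 tested genes passed. Itgae was lower in cKO, as were 0.459% of all tested genes, and Itgb3 was higher, as were 0.204%. With the replicate block 4 of the 10 passed, against 2.87% of all tested genes. These were Itgae and Itga1, lower in cKO (1.64% of all genes), and Itgb3 and Itga4, higher in cKO (1.24% of all genes). For the same 4 chains the Ctrl and cKO libraries did not overlap, as for 3.89% of all tested genes with cKO higher and 7.10% with cKO lower. The other 6 chains passed neither fit. The 10 chains were chosen with earlier results of these data known, so counts above these shares are no test of integrins as a family. The median log2 fold change over the 10 chains was 0.050, beside -0.038 over all tested genes. In the authors' deposited table the chains marked as changed were the same 4, with log2 fold changes of -4.51 for Itgae, 2.37 for Itgb3, -2.34 for Itga1 and 0.91 for Itga4.

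**Figure D1:**
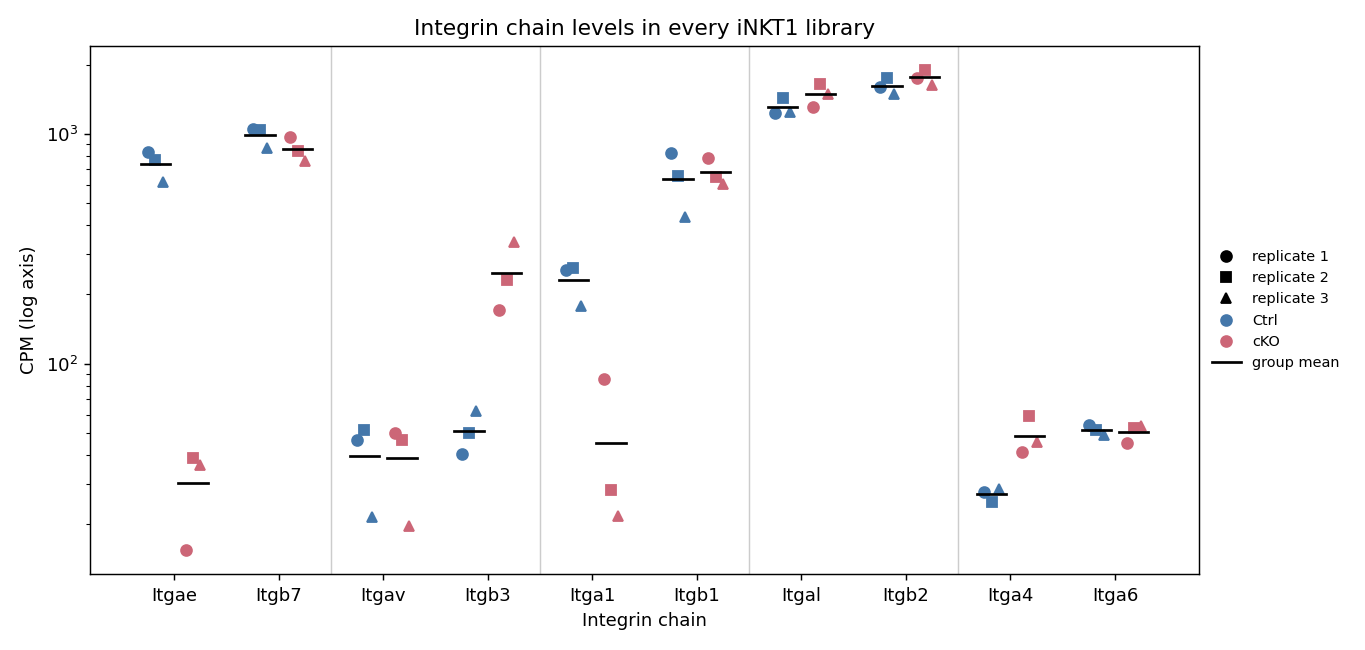
Level of each of the 10 integrin chains in CPM on a log axis, with 1 point per library, shapes for the replicate number, blue for Ctrl, red for cKO and a bar at the group mean of 3 libraries. Itgae and Itga1 lie lower in every cKO library than in any Ctrl library, Itgb3 and Itga4 higher, and the 6 remaining chains overlap.

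Itgae, the alpha chain CD103, was the chain with the largest change. It is encoded on chromosome 11 (73090583 to 73147446, plus strand, build mm10). Replicates 1 to 3 of Ctrl gave 830.3, 768 and 616 CPM, and those of cKO 15.4, 38.7 and 36.3 CPM. The lowest Ctrl library thus lay far above the highest cKO library, and the counts behind the cKO values were still 444, 1627 and 2471 reads. The mean fell from 738 ± 110.5 to 30.1 ± 12.8 CPM (SD, n = 3 each), which left 4.08% of the Ctrl level. Its limma log2 fold change was -4.66 ± 0.339 (standard error), and the adjusted p was 0.00403 (0.000438 with the block). It was -4.97 in replicates 1 and 2 alone, where it did not pass (adjusted p 0.176), and -4.05 in replicate 3. It passed in all 6 fits that each left out 1 library. In bulk RNA, fewer cells with the transcript and less of it per cell cannot be told apart. Haspin, a kinase gene that lies within Itgae on the opposite strand and shares no exon bases with it, was at 32.9 to 39.4 CPM in Ctrl and at 21.6 to 36.0 CPM in cKO.

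Itgb7, the beta chain of CD103, passed neither fit. It was read at 1049, 1042 and 868 CPM in Ctrl and at 968, 841 and 760.3 CPM in cKO, so that the groups overlapped. The means were 986 ± 102 and 856 ± 105 CPM (SD, n = 3 each). Itgb7 was lower in cKO in all 3 same-numbered pairs, but its log2 fold change of -0.21 did not pass (limma adjusted p 0.99998, and 0.246 with the block). The 95% interval of that log2 fold change ran from -0.50 to 0.088 without the block and from -0.37 to -0.045 with it, the second before any adjustment for the number of genes. Itgb7 has a second alpha partner, Itga4. Per kb of principal transcript, Itgae made up 98.6% ± 0.293 of the sum of Itgae and Itga4 in Ctrl and 59.4% ± 9.55 in cKO (SD, n = 3 each). The same sum over Itgb7, per kb, was 0.528 ± 0.0286 in Ctrl and 0.0413 ± 0.0160 in cKO. With the gene model lengths of the deposited table, this ratio was 0.304 ± 0.0164 and 0.0243 ± 0.00936.

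Itgb3, the beta chain of the vitronectin receptor, changed in the opposite direction to Itgae. It also lies on chromosome 11 (104608000 to 104670476, plus strand). Ctrl replicates 1 to 3 had 40.5, 49.7 and 62.2 CPM, and cKO replicates 1 to 3 had 171, 231 and 339.6 CPM. Every cKO library was above every Ctrl library, and in both groups replicate 3 was highest. The mean rose 4.86-fold, from 50.8 ± 10.9 to 247 ± 85.5 CPM (SD, n = 3 each). Its limma log2 fold change was 2.22 ± 0.268 (standard error), and the adjusted p was 0.0237 (1.95e-05 with the block). It was 2.12 in replicates 1 and 2 alone (limma adjusted p 0.000461) and 2.43 in replicate 3. Without the block it no longer passed when Ctrl replicate 1, 2 or 3 or cKO replicate 2 was left out, with limma adjusted p values of 0.115, 0.138, 0.0557 and 0.122. Nor did it pass in edgeR's quasi-likelihood fit on group alone (adjusted p 0.0914).

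Itgav, the alpha partner of Itgb3, was read at 46.3, 51.3 and 21.5 CPM in Ctrl and at 49.7, 46.5 and 19.7 CPM in cKO. The groups overlapped, and both replicate 3 libraries were lower than the other 4. The means were 39.7 ± 15.9 and 38.6 ± 16.5 CPM (SD, n = 3 each), and the log2 fold change of -0.054 passed neither fit (limma adjusted p 0.99998, and 0.907 with the block). Its sign turned under TMM scaling (0.0083). Itgav shares 634 exon bases with Gm13684, a transcript on the opposite strand that was at 0.737 to 1.28 CPM in Ctrl and at 0.308 to 1.91 CPM in cKO. The 95% interval of that log2 fold change was -1.11 to 1.004 without the block and -0.31 to 0.20 with it. Per kb of principal transcript, the ratio of Itgav to Itgb3 was 0.937, 0.847 and 0.284 in Ctrl and 0.239, 0.165 and 0.0476 in cKO.

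Itgb3 also pairs with Itga2b in platelets and megakaryocytes. Itga2b was at 0.623 to 1.27 CPM in Ctrl and at 0.162 to 1.11 CPM in cKO. Only 2 of the 9 platelet markers were measured, Itga2b and Gp5, and they summed to 0.623 to 2.502 CPM in Ctrl and 0.162 to 2.88 CPM in cKO, with Gp5 at 0 in both replicate 3 libraries. For iNKT2 cells, all 4 markers were measured, with sums of 45.0 to 85.2 CPM in Ctrl and 48.2 to 118 CPM in cKO. None of the 4 passed limma without the block, and 3 passed with it, in opposite directions. Il4 was lower in cKO, at 52.3% of the Ctrl mean (limma adjusted p 0.421, and 0.00806 with the block). Plac8 was 2.76 times as high in cKO (0.753, and 0.00613 with the block) and Ccr4 2.22 times (0.716, and 0.0115 with the block). The epithelial and stromal markers, 3 of 7 measured, summed to 28.7 to 41.1 CPM in Ctrl and 51.8 to 71.1 CPM in cKO, most of it Pecam1, which T cells also express. Pecam1 passed in both fits, 2.14 times as high in cKO (limma adjusted p 0.0423, and 0.00136 with the block). The myeloid markers, 5 of 8 measured, summed to 127 to 145 CPM in Ctrl and 83.2 to 99.7 CPM in cKO, most of it Fcer1g. Fcer1g was at 67.3% of the Ctrl mean in cKO and passed with the block only (limma adjusted p 0.129, and 0.00883 with the block). The other measured myeloid markers were at low levels and did not fall together. Their cKO means were 126% of Ctrl for Cd68, 107% for Itgam, 91.8% for Csf1r and 70.3% for Lyz2. The fall of the myeloid sum was therefore that of Fcer1g. The part of these markers in the integrin results was not tested.

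Itga1, the alpha chain CD49a, had the second most negative log2 fold change of the 10 chains, and its cKO libraries were spread widely. It lies on chromosome 13 (114958079 to 115101964, minus strand). Ctrl replicates 1 to 3 had 257, 261 and 177 CPM, and cKO replicates 1 to 3 had 85.9, 28.2 and 21.8 CPM. All cKO libraries were below all Ctrl libraries, with cKO replicate 1 the highest of the 3. The same library had the lowest Itgae of all, so the order of the cKO libraries differed between these 2 chains. The means were 232 ± 47.2 and 45.3 ± 35.3 CPM (SD, n = 3 each), or 19.5% of the Ctrl level. Its limma log2 fold change of -2.57 ± 0.483 (standard error) did not pass without the block (adjusted p 0.114) and passed with it (0.00394). It was -2.37 in replicates 1 and 2 alone (limma adjusted p 0.642) and -2.97 in replicate 3. Without cKO replicate 1 it was -3.15 and passed (limma adjusted p 0.0115). Itga1 shares 685 exon bases with Gm49395, a gene on the same strand that was not analysed here, so reads there could belong to either. Pelo, a gene within Itga1 on the same strand that shares no exon bases with it, was at 13.9 to 16.5 CPM in Ctrl and at 11.5 to 13.9 CPM in cKO.

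Itgb1, the shared beta chain of CD49a, VLA-4 and the laminin receptor, was read at 822, 655 and 436 CPM in Ctrl and at 786, 650.1 and 607 CPM in cKO. The groups overlapped, and the Ctrl values spanned a wider range than the cKO values. The means were 638 ± 193 and 681 ± 93.1 CPM (SD, n = 3 each), with a log2 fold change of 0.13 (limma adjusted p 0.99998, 95% interval -0.42 to 0.69). The difference within pairs was -0.065, -0.012 and 0.48 on the log2 scale for replicates 1 to 3, so that the sign of the mean rests on replicate 3.

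Itga4, the alpha chain of VLA-4, was the other chain that passed with the block alone. It lies on chromosome 2 (79255426 to 79333123, plus strand). It was at 27.7, 24.9 and 28.4 CPM in Ctrl and at 41.3, 59.0 and 45.5 CPM in cKO. All cKO libraries were above all Ctrl libraries, and here the replicate 3 libraries were in the range of the others. The Ctrl mean was 27.0 ± 1.89 CPM and the cKO mean 48.6 ± 9.25 CPM (SD, n = 3 each), 1.80 times as high. Its limma log2 fold change was 0.81 ± 0.152 (standard error), with an adjusted p of 0.112 without the block and 0.0219 with it. In replicates 1 and 2 alone it was 0.89 and passed (limma adjusted p 0.0386), and in replicate 3 it was 0.66. It passed in 0 of the 6 limma fits without the block that left out 1 library (adjusted p 0.132 to 0.468). Nor did it pass in edgeR's quasi-likelihood fit on group alone (adjusted p 0.181). Itga4 shares 1124 exon bases with Cerkl on the opposite strand, and strand-specific counting is not stated, so reads there could come from either gene. Cerkl was at 2.19 to 7.28 CPM in Ctrl and at 2.32 to 10.3 CPM in cKO.

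The RefSeq promoter table (build GRCm38.p6) was matched for 5 of the 10 chains: Itga1, Itga4, Itgb7, Itgav and Itgb1. The 250 bases before the start of Itga1 (chr13:115101965-115102214, minus strand) and of Itga4 (chr2:79255176-79255425, plus strand) are shown because these are the chains among the 5 that passed with the block, 1 in each direction. They are written 5′ to 3′ with capitals for matches to CAGAC (the short SMAD motif), TGTGGT (RUNX) or GGTGTGA (T-box), each searched on both strands.
Itga1: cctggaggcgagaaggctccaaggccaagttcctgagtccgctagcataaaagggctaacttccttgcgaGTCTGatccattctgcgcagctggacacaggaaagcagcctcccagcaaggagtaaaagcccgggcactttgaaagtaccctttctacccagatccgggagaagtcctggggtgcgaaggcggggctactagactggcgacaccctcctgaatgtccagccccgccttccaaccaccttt
Itga4: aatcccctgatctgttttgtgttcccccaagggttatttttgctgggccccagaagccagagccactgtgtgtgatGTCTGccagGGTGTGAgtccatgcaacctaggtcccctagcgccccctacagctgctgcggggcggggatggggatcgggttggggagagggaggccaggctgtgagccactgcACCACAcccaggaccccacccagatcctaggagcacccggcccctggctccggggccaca

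Itga1 held 1 match, the SMAD letters, whose first base lies 180 bases before the start. Itga4 held 1 match to each motif, with the SMAD letters beginning 174 bases, the T-box letters 165 bases and the RUNX letters 60 bases before the start. The SMAD letters occurred 2 times before Itgb7, 3 times before Itgb1 and 0 times before Itgav, chains that did not pass either fit. Over 32851 promoters of the same length, 42.2% held the SMAD letters, 14.0% the RUNX letters and 3.33% the T-box letters. A match describes the letters only.

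Itgal and Itgb2, the chains of LFA-1, passed neither fit. Itgal was read at 1233, 1440.2 and 1245 CPM in Ctrl and at 1312, 1653 and 1488 CPM in cKO. Itgb2 was read at 1598, 1743 and 1489.7 CPM in Ctrl and at 1746, 1898 and 1636 CPM in cKO. In each of the 3 same-numbered pairs both chains were slightly higher in cKO, while the groups overlapped. The log2 fold change was 0.18 for Itgal (limma adjusted p 0.99998, and 0.289 with the block) and 0.13 for Itgb2 (0.99998, and 0.442 with the block). The 95% intervals without the block, -0.088 to 0.45 for Itgal and -0.098 to 0.36 for Itgb2, leave out changes of the size seen for Itgb3. With the block they were 0.030 to 0.33 for Itgal and -0.010 to 0.27 for Itgb2.

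Itga6, the alpha chain of the laminin receptor, passed neither fit. It was at 53.8, 51.5 and 48.7 CPM in Ctrl and at 45.3, 52.3 and 53.6 CPM in cKO. The groups overlapped, with means of 51.4 ± 2.56 and 50.4 ± 4.45 CPM (SD, n = 3 each). The log2 fold change was -0.029 (limma adjusted p 0.99998, 95% interval -0.27 to 0.22), and its sign turned under TMM scaling (0.035).

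**Figure D2:**
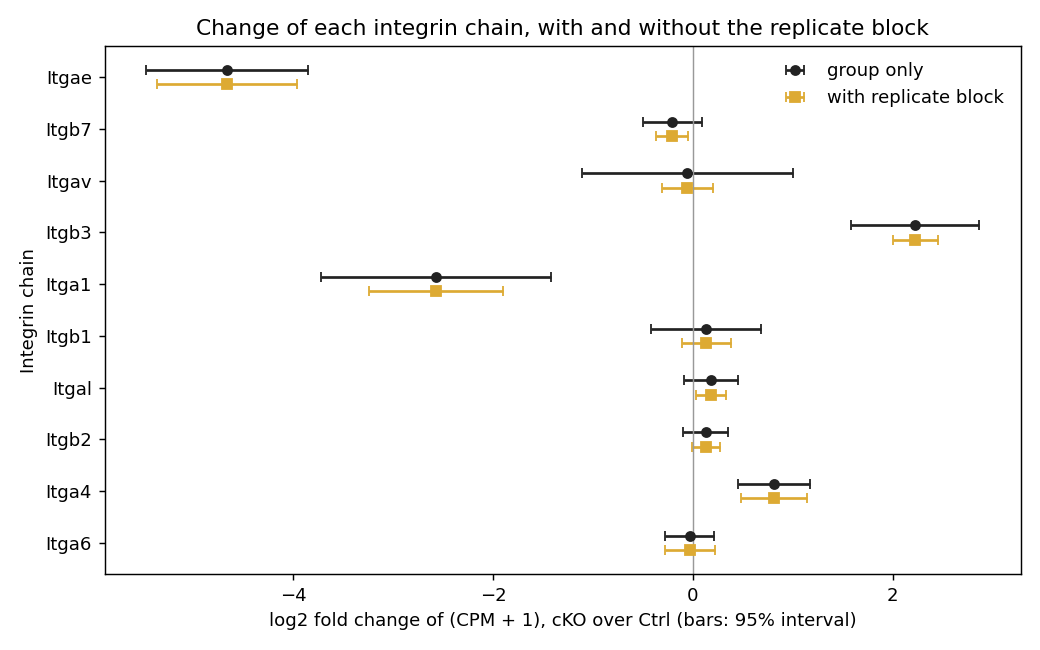
Log2 fold change of each chain on the log2(CPM + 1) scale, cKO over Ctrl, with 95% intervals from limma fitted on the group alone (black circles) and with the replicate block (yellow squares), 3 libraries per group. The intervals of Itgae and Itga1 lie below 0 and those of Itgb3 and Itga4 above it in both fits, and those of Itgb7 and Itgal leave out 0 with the block only, before any adjustment for the number of genes.

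Whether partner chains moved together was asked within each library, by the log2 ratio of alpha to beta chain, each taken as CPM + 1. There were 8 pairs compared. The ratio of Itgae to Itgb7 was -0.42 ± 0.080 in Ctrl and -4.88 ± 0.870 in cKO (SD, n = 3 each), a difference of -4.46. The ratio of Itga1 to Itgb1 went from -1.43 ± 0.212 to -4.13 ± 0.836, a difference of -2.70. For Itgav over Itgb3 the difference was -2.28, and here the beta chain was the one that differed between the groups. For these 3 pairs, and for Itga4 over Itgb7 with a difference of 1.02, no cKO library overlapped a Ctrl library. Each gave an exact two-sided permutation p of 0.1, the smallest that 3 libraries against 3 allow, and 0.2 after adjustment over the 8 pairs. The other 4 pairs overlapped. The difference was 0.053 for Itgal over Itgb2 (exact p 0.6), 0.68 for Itga4 over Itgb1 (exact p 0.2), -0.16 for Itga6 over Itgb1 (exact p 0.6) and -0.19 for Itgav over Itgb1 (exact p 0.8). For LFA-1 the ratio lay between -0.41 and -0.14 in all 6 libraries, the narrowest range of the 8 pairs.

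**Figure D3:**
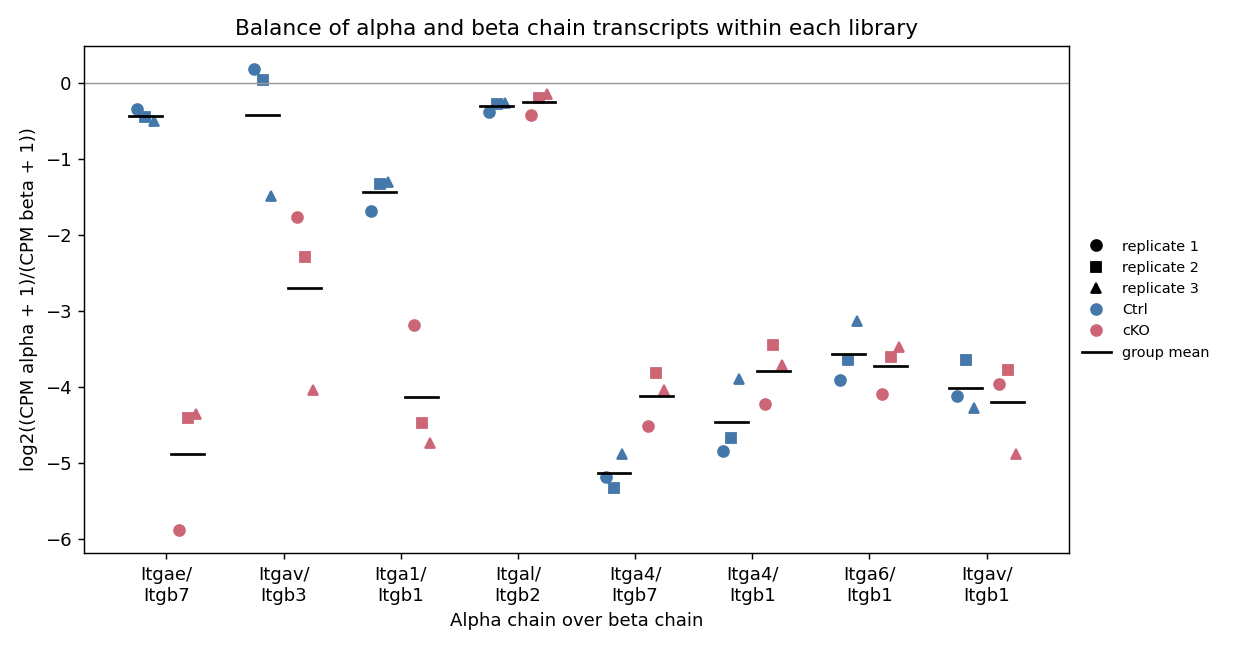
Log2 ratio of alpha chain to beta chain, each as CPM + 1, in every library for 8 possible pairs, with blue for Ctrl, red for cKO, shapes for the replicate number and a bar at the group mean. The groups are separate for Itgae/Itgb7, Itgav/Itgb3, Itga1/Itgb1 and Itga4/Itgb7, and overlap for the other 4 pairs.

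The order of the chains by level was read per kb of length, since chains differ in length. It was taken both with the principal GENCODE transcript and with the length of the gene model in the deposited table. By either length Itgb2 and Itgb7 were the top chains in both groups, and the length decided which of them came first. By transcript length Itgb2 was at 542 ± 42.8 CPM per kb in Ctrl and Itgb7 at 368 ± 38.1, without overlap. They were followed by Itgal at 251 ± 22.4, Itgae at 192 ± 28.7 and Itgb1 at 167 ± 50.7 CPM per kb. Itgae and Itgb1 overlapped in Ctrl, and the order of these 3 changed with the length used. Itga1 came next by either length, and the lowest were Itgb3, Itga6, Itgav and Itga4, with Itga4 last at 2.77 ± 0.194 CPM per kb. By transcript length Itgb3 and Itgav overlapped in Ctrl, while Itga6 stood above Itgb3 and Itga4 below Itgav in every library of the group. Per kb of the table's gene model, Itga4 was at 1.35 to 1.55 and Itgav at 0.995 to 2.37 CPM in Ctrl. These levels lay below the 90th percentile, 3.01 to 4.29 CPM per kb in replicates 1 and 2, of the genes at 0 in both replicate 3 libraries. In replicates 1 and 2, Itga6 lay below it too. Its highest level over the 3 libraries of a group was 3.01 CPM per kb in Ctrl (replicate 1) and 3.00 in cKO (replicate 3). Itgav also lay below it in cKO replicates 1 and 2, at most at 2.30. In cKO replicate 1, Itga4 (2.25) and Itgae (2.01) were below its 4.29, and in Ctrl replicate 1 Itgb3 (3.99) was below its 4.07. In the replicate 3 libraries of Ctrl and cKO, however, Itga4 had 1505 and 3096 reads, Itgav 1141 and 1341 and Itga6 2580 and 3651. In cKO Itgae stood at 7.84 ± 3.33 CPM per kb, in place 7 of 10 by either length, and Itgb3 at 42.7 ± 14.8 CPM per kb, in place 5 by either length. By transcript length Itgb7 and Itgal overlapped in cKO, and so did Itgae, Itgav, Itga4 and Itga1, the lowest 4. The Itga1 model in the table is shorter than in GENCODE (5984 against 10967 bases for the principal transcript), so its place in cKO, 6 or 10, depended on the length.

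Genes whose pattern over the 6 libraries was most like that of a chain were picked by Pearson correlation of log2(CPM + 1) among the 10141 genes whose mean reached 5 CPM. For Itgae these were Sulf2 (r = 0.999), Ss18 (r = 0.997) and Swap70 (r = 0.992). Sulf2, an extracellular sulfatase gene, was at 73.9 to 82.5 CPM in Ctrl and at 20.7 to 26.8 CPM in cKO (limma log2 fold change -1.66, adjusted p 0.00444). For Itgb3 they were Sla (r = 0.997), Gna15 (r = 0.994) and Gimap7 (r = 0.994). Gimap7, a GTPase gene, was at 33.0 to 50.6 CPM in Ctrl and at 143 to 223 CPM in cKO (limma log2 fold change 2.19, adjusted p 0.0114). Swap70 also passed limma without the block (-0.98, adjusted p 0.0313). Ss18 (-0.32, 0.239), Sla (0.44, 0.123) and Gna15 (0.68, 0.109) changed less and did not pass it. With the block Sla and Gna15 passed limma (adjusted p 0.0128 and 0.00768) and Ss18 did not (0.0802). The 6 points of each correlation share 2 groups and the replicate numbers, so r largely restates the group difference.

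The other integrin chains were at low levels. Of 17 chains in that list, 12 had a row in the table and 10 were tested. None passed limma, with or without the block, where 0.663% and 2.87% of all genes did, and their median log2 fold change was 0.11. At an unadjusted limma p below 0.05 there was 1 of the 10, with or without the block. The edgeR fits gave 0 calls with or without the block, and DESeq2 gave 1, Itga2. Itga2, the alpha chain CD49b, was at 14.9, 18.0 and 12.9 CPM in Ctrl and at 28.7, 23.0 and 17.5 CPM in cKO (log2 fold change 0.55, limma adjusted p 0.736). Itgb6 was at 18.8 and 10.9 CPM in Ctrl replicates 1 and 2, at 18.7 and 9.85 CPM in cKO replicates 1 and 2 and at 0 in both replicate 3 libraries, and 4 of the 12 chains were at 0 in such a library. Itga3 was at 6.91 to 11.5 CPM in Ctrl and at 4.38 to 9.33 CPM in cKO.

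The genes that activate integrins from inside the cell or link their tails to actin were also counted. Of 37 listed, 33 were tested, and 0 passed without the block and 2 with it, 1 in each direction, where 0.663% and 2.87% of all tested genes did. The list's median log2 fold change was -0.0022. At an unadjusted limma p below 0.05 there were 3 of the 33 without the block and 7 with it. The edgeR fits gave 0 calls without the block and 2 with it, and DESeq2 gave 2. In 3 of the 33 all cKO libraries were above all Ctrl libraries and in 4 below, where 3.89% and 7.10% of all tested genes were. Both genes that passed with the block were picked out after their values were seen. Rasgrp1, an exchange factor that activates Ras downstream of the T cell receptor, was at 267 to 329 CPM in Ctrl and at 337 to 446 CPM in cKO (log2 fold change 0.42, limma adjusted p 0.517, and 0.0199 with the block). Actn1, an actin crosslinker that binds beta chain tails, was at 11.6 to 14.4 CPM in Ctrl and at 4.06 to 7.92 CPM in cKO (log2 fold change -1.09, limma adjusted p 0.242, and 0.0358 with the block). The 3 members of highest mean overlapped between the groups. Tln1, the talin gene whose product binds beta chain tails, was at 847 ± 249.9 and 867 ± 273 CPM in Ctrl and cKO (SD, n = 3 each). Zyx was at 953 ± 46.9 and 905 ± 64.4 CPM, and Sipa1, an inhibitor of Rap1, at 872 ± 79.3 and 809 ± 55.7 CPM. Rassf5, a Rap1 effector and the fifth in mean level, was at 809 to 906 CPM in Ctrl and at 677 to 774 CPM in cKO without overlap (log2 fold change -0.22, limma adjusted p 0.770, and 0.167 with the block). Rassf5 passed neither fit and was also picked out after its values were seen.

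Among 33 listed ligands of integrins, 22 were tested and 1 passed in both fits, Cdh1, where 0.663% of all tested genes passed without the block and 2.87% with it. Cdh1 encodes E-cadherin, the ligand of the Itgae-Itgb7 pair. It was read at 258, 261 and 193 CPM in Ctrl and at 2.91, 3.62 and 0.822 CPM in cKO, so the CD103 chain and the gene of its ligand fell in the same libraries. For Cdh1 the limma log2 fold change was -6.20 ± 0.350 (standard error), and the adjusted p was 0.00215. The list's median log2 fold change was -0.059, and 15 of its 25 members in the table were at 0 in a replicate 3 library. Icam1, a ligand of LFA-1, was at 159 to 166 CPM in Ctrl and at 195 to 232 CPM in cKO without overlap (log2 fold change 0.39, limma adjusted p 0.239, and 0.0590 with the block). It passed with the block together with TMM scaling and under DESeq2. Icam2 was at 81.7 ± 1.49 and 88.0 ± 18.1 CPM and Tgfb1, whose latent form is bound by integrins with the alpha V chain, at 82.3 ± 17.4 and 96.6 ± 6.98 CPM in Ctrl and cKO (SD, n = 3 each).

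**Figure D4:**
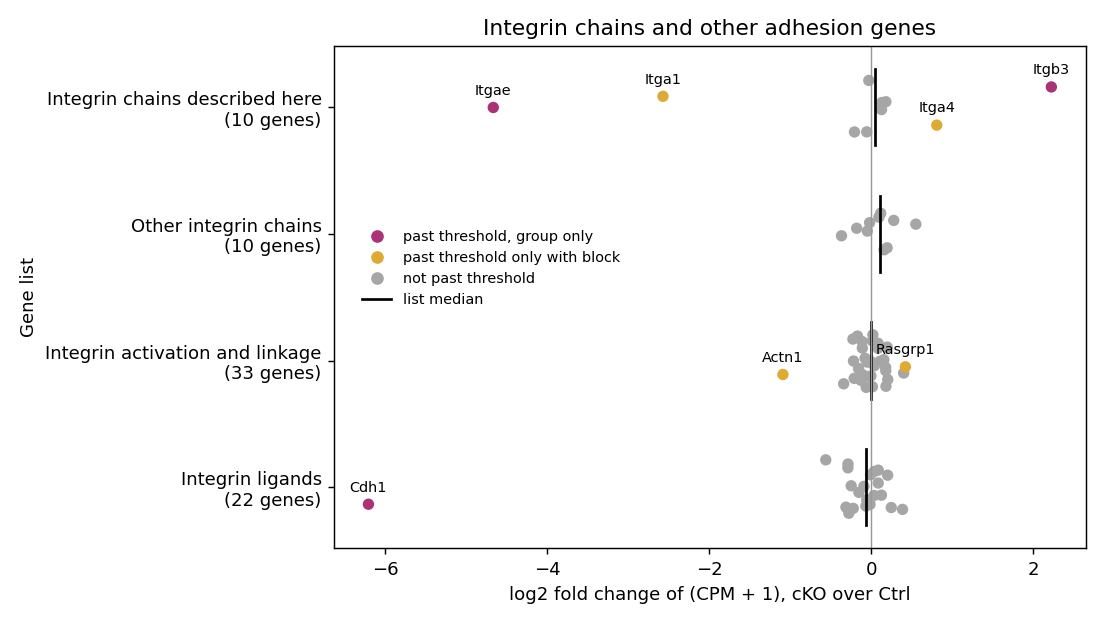
Log2 fold change on the log2(CPM + 1) scale, cKO over Ctrl, for the 10 integrin chains and 3 lists of adhesion genes, with 1 point per tested gene and a bar at the list median. Colours mark genes past an adjusted p of 0.05 on the group alone, with the replicate block only, or in neither fit, and the vertical place within a row is for display. Cdh1 lies farthest to the left and Itgb3 farthest to the right.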

How the data were processed

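The series held 1 table of 6 libraries. Its columns name the groups WT and KO, taken as Ctrl and cKO, the only groups in the labels. Per the submitters' processing notes, Trimmomatic 0.33, STAR 2.5.2, HTSeq 0.6.1, edgeR and build mm10 were used. The deposited CPM values were whole multiples of 1 read (tolerance 0.01 reads) for 100% of values, so reads were recovered for edgeR and DESeq2. The deposited log2 fold change, p-value and likelihood-ratio score are the authors'.

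The main test was limma 3.58.1 on log2(CPM + 1), over the 15691 genes whose mean reached 1 CPM, with group as the only term, a trend and robust moderation. P-values were adjusted by Benjamini-Hochberg over all tested genes, with a threshold of 0.05. This scale understates changes of low genes. The replicate number was used as a block in a second fit, planned as an alternative. The deviations of same-numbered libraries from their group means correlated at 0.855, 0.687 and 0.924. Deviations cancel out within a group, so a shift shared by both replicate 3 libraries by itself moves replicates 1 and 2 alike. The correlations therefore cannot decide whether same-numbered libraries were paired. By these deviations, 5 of the 6 libraries matched their own number best in the other group, and Ctrl replicate 2 matched cKO replicate 1. Other fits used edgeR 4.0.16 and DESeq2 1.42.0 (R 4.3.3), TMM scaling, other pseudocounts and filters, replicates 1 and 2 only, and leaving out 1 library. The limma and edgeR fits were tested on simulated counts without a replicate effect. That test does not cover libraries that stand apart as the replicate 3 libraries do.

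The chains and gene lists were chosen with earlier results of these data known. The iNKT17 marker list is not reported here. Most genes were named by a rule: the 10 chains, Tgfbr2, in each list up to 6 genes that passed and the 3 of highest mean among the rest, and the 3 genes most like Itgae and Itgb3. Named outside this rule were cell type markers, genes that overlap a chain, and Rasgrp1, Actn1, Rassf5 and Dok2. Transcript lengths and overlaps came from GENCODE M21 (GRCm38). Reads carry no molecular identifiers, so depth covers counting error only.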

Additional observations from a re-analysis of the deposited data

How the results depend on the processing

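Itgae kept its direction in all fits and passed in all but replicates 1 and 2 only (-4.97, adjusted p 0.176). Itgb3, Itga1 and Itga4 kept their direction in all fits, with log2 fold changes of 2.12 to 2.35, -2.59 to -2.33 and 0.73 to 0.90 over the 11 alternatives. The number of the 10 chains that passed, 2 in the main test, was 4 with the replicate block, with edgeR and the replicate block, with DESeq2, and with TMM scaling and the replicate block, which was chosen after seeing the data. It was 1 with edgeR alone and 1 to 3 when a library was left out. Among the chains and adhesion lists, the limma fit with the replicate block changed the calls of Itga1, Itga4, Rasgrp1 and Actn1.

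Over all genes, 104 passed (30.8% of them higher), against 451 with the replicate block (43.0% higher), 469 with edgeR and the replicate block, 514 with TMM scaling and the replicate block (51.6% higher), 554 with DESeq2, 296 in replicates 1 and 2 only, 40 with edgeR, and 14 to 97 when a library was left out. Of the activation and linkage genes, 2 passed with the replicate block, with edgeR and the replicate block, and with DESeq2, and 3 with TMM scaling and the replicate block (Dok2 besides, named after its values were seen). Of the ligands, 2 passed with DESeq2 and with TMM scaling and the replicate block, and of the other chains 1 with DESeq2.

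Values near 0 changed sign. Itga6 was 0.031 with DESeq2, 0.035 with TMM scaling with or without the block, 0.024 with edgeR, 0.017 with edgeR and the block, and -0.074 to 0.044 when a library was left out. Itgav was 0.0083 with TMM scaling with or without the block and -0.43 to 0.36 when a library was left out. Itgb1 was -0.038 in replicates 1 and 2 only and -0.12 to 0.34 when a library was left out. The difference of the Itgav to Itgb1 ratio was 0.019 in replicates 1 and 2 only. When a library was left out it ran from -0.40 to 0.15, that of Itga6 to Itgb1 from -0.33 to 0.051 and that of Itgal to Itgb2 from -0.0028 to 0.13. Paired by replicate number, an exact sign-flip test of a ratio cannot go below 0.25. For each change the cause was not tested.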
